A study of Mus musculus with 12 samples.

Results

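The genes described here are 10 genes of cholesterol efflux and lipid storage: Abca1, Abcg1, Apoe, Nr1h3, Mylip, Npc1, Npc2, Soat1, Plin2 and Lpl. They were taken by symbol from a table of raw counts for 57010 Ensembl genes, and all 10 were found and had enough counts to be tested. The table held 12 RNA-seq libraries of mouse large peritoneal macrophages, which live in the peritoneal cavity in the steady state. The study crossed the loss of Tim4, a receptor for phosphatidylserine on dying cells, with a challenge by ID8 tumour cells, a mouse ovarian cancer line.

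All mice were female. There were 4 groups of 3 libraries, numbered as in the labels: naive and ID8-challenged WT cells, and naive and ID8-challenged Tim4KO cells. WT mice were wild type and Tim4KO mice lacked Tim4. Naive mice received no tumour cells. The ID8 groups were 8 weeks old when injected into the peritoneum with ID8ZGO cells, which are ID8 cells carrying ZsGreen and OVA, and were sampled 24 h later. Cells of all groups were sorted as F4/80 high and MHC class II low, and only ZsGreen-positive macrophages were kept from challenged mice, so the challenge and the selection for cells that carry tumour material cannot be told apart. No label says that the 3 libraries of a group came from separate animals, so the p-values measure the spread between these libraries, which may be technical. The RNA is a bulk measurement, and fewer expressing cells and less RNA per cell cannot be told apart.

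A macrophage that has taken up cells or lipoproteins receives cholesterol in its lysosomes, where NPC2 and NPC1 pass it on to other membranes. Surplus cholesterol is esterified by SOAT1 and stored in droplets coated by proteins such as perilipin 2, or is exported by ABCA1 and ABCG1 to acceptors such as apolipoprotein E. Liver X receptors (LXR), of which LXR alpha is encoded by Nr1h3, sense oxysterols and drive Abca1, Abcg1, Apoe and Mylip, and the product of Mylip marks the LDL receptor for degradation.

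LXR binds as a dimer with RXR to a DR4 element, a direct repeat spaced by 4 bases, and the members' start sites were searched for its letters. RefSeq windows of 300 bases around the start (GRCm38.p6, 250 bases before and 50 after it) were held for 7 of the 10 members, in 10 windows. The letters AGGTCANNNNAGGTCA, with up to 3 mismatches over the 12 scored bases and on both strands, were matched in 21.9% of all 32544 windows. Among the members' windows only that of Abca1 held such a match, in reverse orientation and with 3 mismatches, beginning 67 bases before the start. The letters TATAAA were matched in 13.6% of all windows, and among the members in Abca1, in Mylip and in 1 of the 3 Apoe windows. The 120 bases before the start are printed for these 3 LXR-driven genes, with Abca1 holding both motifs, Mylip the TATA box only and the Apoe window shown neither. They lie on chr4:53159896-53160015 (minus strand), chr13:45389622-45389741 (plus strand) and chr7:19699189-19699308 (minus strand), and overlap 0 exons of the GENCODE annotation. Capitals mark the motif matches, read 5′ to 3′ on the strand of the gene.
Abca1: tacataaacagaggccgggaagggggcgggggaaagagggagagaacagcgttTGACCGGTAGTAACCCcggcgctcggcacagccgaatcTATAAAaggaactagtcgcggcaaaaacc
Mylip: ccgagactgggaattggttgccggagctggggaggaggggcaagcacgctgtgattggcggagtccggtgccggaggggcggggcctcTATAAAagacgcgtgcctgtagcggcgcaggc
Apoe: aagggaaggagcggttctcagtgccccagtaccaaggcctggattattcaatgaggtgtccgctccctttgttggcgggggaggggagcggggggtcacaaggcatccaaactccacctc
These matches describe letters, and no binding was measured.

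Levels are given as CPM, the counts of a gene relative to all counts in tested genes, scaled between libraries by TMM. Library totals over all genes ran from 7358559 to 23170244 counts. Relative to these totals, without TMM scaling, 3 counts, the level told from 0, corresponded to 0.129 to 0.408 CPM. Timd4, the gene of Tim4, lay between 882 and 1489 CPM in the 6 WT libraries, between 7.21 and 7.71 CPM in Tim4KO naive and between 1.38 and 1.92 CPM in Tim4KO ID8. Markers of large peritoneal macrophages, a list that includes Timd4, summed to 19934 to 24765 CPM in WT naive and 15976 to 19796 CPM in WT ID8. In Tim4KO they summed to 20282 to 23837 CPM in naive and 18882 to 19586 CPM in ID8 libraries. Within this list Alox15 lay at 10602.5 to 11918 CPM in WT naive and 4751 to 5905 CPM in WT ID8. Itgam went the other way, from 994 to 1299 CPM in WT naive to 1705 to 2265 CPM in WT ID8. Background was taken from 1713 genes of olfactory and vomeronasal receptors whose mean was at most 1 CPM, relative to the library totals. They summed to 314 to 862 CPM in WT naive and 264 to 470 CPM in Tim4KO naive. In WT ID8 they summed to 5.57 to 246 CPM and in Tim4KO ID8 to 39.5 to 353 CPM. WT ID8 library 3 had the lowest such background, the largest total and the fewest detected genes (21235, against 24347 to 40365 in the others), and results that it decides are given with and without it. Markers of neutrophils and eosinophils summed to 6.01 to 9.52 CPM in naive and 13.0 to 31.3 CPM in ID8 libraries, and those of small peritoneal macrophages and dendritic cells to 48.3 to 64.8 CPM and 10.7 to 29.0 CPM. The genes of these lists did not move together. S100a8 lay at 4.40 to 7.38 CPM in naive and 9.13 to 24.8 CPM in ID8 libraries, while Ly6g was at most 0.231 CPM. Retnlg lay at 0.601 to 3.91 CPM in WT ID8 and 5.01 to 11.9 CPM in Tim4KO ID8, and at most at 1.86 CPM in naive libraries. Cd209a lay at 24.4 to 39.5 CPM in naive and 3.27 to 6.66 CPM in ID8 libraries, while Ccr2 overlapped, at 4.66 to 19.8 CPM and 3.18 to 16.7 CPM. The lists for epithelial or tumour, mesothelial, B, T or NK and mast cells each summed to at most 28.4 CPM in any library, and at most 1 gene of a list had no count in a group. In WT each of these sums was lower in every ID8 library than in any naive library. Mast cell sums were 11.1 to 28.4 CPM in WT naive and 1.73 to 4.38 CPM in WT ID8. In Tim4KO the epithelial or tumour, B and mast cell sums were also lower without overlap, while mesothelial and T or NK sums overlapped. The part of the background and of these cells in the results below was not tested, apart from a fit with the background as a covariate.

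**Figure D1:**
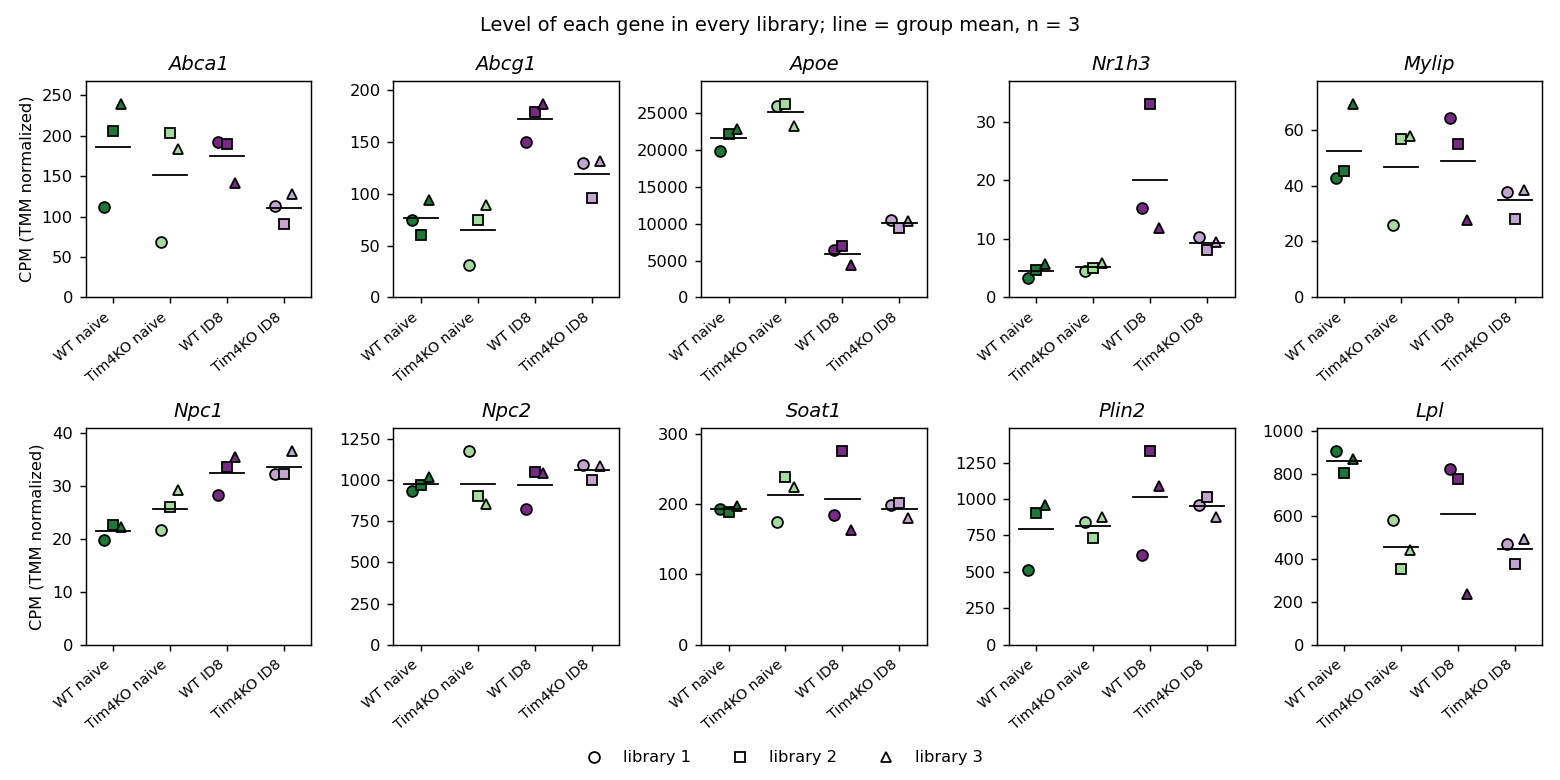
Level of each of the 10 genes in CPM (vertical axes, each from 0) in every library of the 4 groups (horizontal axes), with lines at the group means and symbols for the library number. Apoe separates naive from ID8 libraries in both genotypes, whereas Npc2 and Soat1 lie at like levels in all groups.

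The challenge was compared with the naive state within each genotype. In WT cells, Nr1h3 rose 4.31-fold, Abcg1 2.25-fold and Npc1 1.51-fold, and Apoe fell 3.63-fold, so that 4 of the 10 genes passed an edgeR adjusted p under 0.05. Of all 15943 tested genes, 31.8% passed in that comparison, 19.5% as higher and 12.3% as lower. In Tim4KO cells Apoe fell 2.5-fold and was the 1 member that passed, against 16.6% of all genes, of which 11.5% were higher and 5.06% lower. The median log2 change of the members was 0.05 in WT and 0.04 in Tim4KO, and that of all tested genes was -0.04 and -0.05. Both shares of members are thus near or below the background. With upper-quartile scaling the median change of all genes was -0.28 in WT and -0.17 in Tim4KO, and the share of called genes that were higher went from 61.3% to 33.9% in WT and from 69.5% to 48.7% in Tim4KO.

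**Figure D2:**
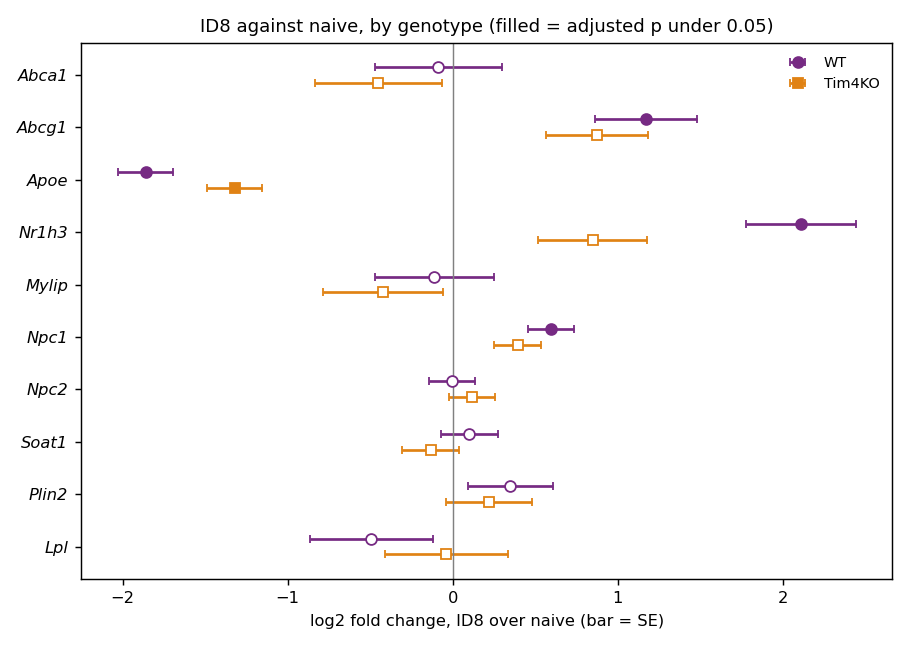
log2 fold change of ID8 over naive for each gene (horizontal axis) in WT (circles) and Tim4KO (squares), with bars of 1 standard error and filled symbols for an edgeR adjusted p under 0.05. Filled symbols are Apoe in both genotypes and Abcg1, Nr1h3 and Npc1 in WT.

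Apolipoprotein E, the secreted acceptor of exported cholesterol, made up 2.10% to 2.34% of all counts in WT naive and 2.51% to 2.68% in Tim4KO naive libraries. After the challenge the share was 0.412% to 0.650% in WT and 0.952% to 1.02% in Tim4KO. Every ID8 library lay below every naive library of its genotype. Apoe stood at 19826, 22141 and 22830 CPM in WT naive and at 6463, 7023 and 4356 CPM in WT ID8, a log2 change of -1.86 (SE 0.17, edgeR adjusted p = 3.7e-06). In Tim4KO naive it stood at 26053, 26238 and 23249 CPM and in Tim4KO ID8 at 10527, 9371 and 10315 CPM, a log2 change of -1.32 (SE 0.17, edgeR adjusted p = 0.000126). Within the naive state and within the ID8 state, all Tim4KO libraries were above all WT libraries. The genotypes did not overlap for 14.2% of all tested genes in naive and 15.6% in ID8 cells. The naive difference was 0.22 on the log2 scale (SE 0.16, edgeR adjusted p = 0.870), and the ID8 difference also missed the edgeR threshold. Both falls passed in every alternative fit.

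ABCA1 loads cholesterol onto lipid-poor apolipoproteins. Abca1 stood at 111, 206 and 239 CPM in WT naive, 68.5, 203 and 183 CPM in Tim4KO naive, 193, 190.3 and 142 CPM in WT ID8, and 113, 91.0 and 128 CPM in Tim4KO ID8. Library 1 was low in both naive groups, and the naive and ID8 libraries overlapped in each genotype. The log2 change with the challenge was -0.09 in WT (approximate 95% interval -0.84 to 0.66, edgeR adjusted p = 0.873) and -0.45 in Tim4KO (-1.21 to 0.31, edgeR adjusted p = 0.482). The SE of 0.38 and 0.39 leaves changes of either sign within these intervals.

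ABCG1 passes cholesterol to more mature lipoprotein particles. Abcg1 stood at 74.6, 60.6 and 93.9 CPM in WT naive and at 150.0, 179 and 186 CPM in WT ID8, with no overlap, and rose by 1.17 on the log2 scale (SE 0.31, edgeR adjusted p = 0.0151). The call ended without WT ID8 library 3 (1.13, edgeR adjusted p = 0.0711) and when the background entered as a covariate (1.03, edgeR adjusted p = 0.148). In Tim4KO naive it stood at 31.2, 74.8 and 88.8 CPM and in Tim4KO ID8 at 129.96, 95.4 and 132 CPM. These groups did not overlap either, and the log2 change of 0.87 (SE 0.31) missed the threshold with an edgeR adjusted p of 0.0793. It passed with DESeq2 (adjusted p = 0.0235), when genes with low counts were kept (0.93, edgeR adjusted p = 0.000121), with the replicate number as a block (0.94, edgeR adjusted p = 0.0478) and without Tim4KO naive library 3 (1.19, edgeR adjusted p = 0.0495).

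Nr1h3, the gene of LXR alpha, stood at 3.25, 4.74 and 5.73 CPM in WT naive and at 15.2, 33.0 and 11.8 CPM in WT ID8. Library 2 of WT ID8 was far above the other two, and the groups did not overlap. The rise was 2.11 on the log2 scale (SE 0.33, edgeR adjusted p = 0.000416), and it passed in each alternative fit. In Tim4KO naive Nr1h3 stood at 4.59, 5.06 and 5.80 CPM and in Tim4KO ID8 at 10.4, 8.03 and 9.51 CPM, again with no overlap. The log2 change of 0.85 (SE 0.33) had an edgeR adjusted p of 0.0968, which was 0.0265 without WT ID8 library 3 and 0.0167 without WT ID8 library 2. It also passed when genes with low counts were kept (0.90, edgeR adjusted p = 0.00796) and in a fit to only the Tim4KO libraries (0.81, edgeR adjusted p = 0.00915). Nr1h3 rested on 30 to 384 counts a library, and its exons overlap those of the predicted gene Gm13783 on the same strand over 34 bases.

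Mylip, whose product sends the LDL receptor to degradation, stood at 42.6, 45.3 and 69.1 CPM in WT naive, 25.8, 56.6 and 57.7 CPM in Tim4KO naive, 64.0, 54.7 and 27.7 CPM in WT ID8, and 37.8, 28.1 and 38.4 CPM in Tim4KO ID8. All groups overlapped between naive and ID8. The log2 change was -0.11 in WT (SE 0.36, edgeR adjusted p = 0.825) and -0.42 in Tim4KO (SE 0.36, edgeR adjusted p = 0.483).

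Of the 2 genes of lysosomal cholesterol exit, Npc1 passed in WT and Npc2 in neither genotype, and the difference between them was not tested. Npc1, which encodes the membrane transporter, stood at 19.7, 22.6 and 22.2 CPM in WT naive and at 28.3, 33.6 and 35.4 CPM in WT ID8. These groups did not overlap, and Npc1 rose by 0.59 on the log2 scale (SE 0.14, edgeR adjusted p = 0.00561). The call ended with upper-quartile scaling (0.35, edgeR adjusted p = 0.0593) and with the background as a covariate (0.49, edgeR adjusted p = 0.0751). In Tim4KO naive Npc1 stood at 21.6, 26.0 and 29.1 CPM and in Tim4KO ID8 at 32.1, 32.2 and 36.5 CPM, with no overlap and a log2 change of 0.39 (SE 0.14, edgeR adjusted p = 0.0694). That change passed without WT ID8 library 3 (0.41, edgeR adjusted p = 0.0455) and with the replicate number as a block (0.40, edgeR adjusted p = 0.0364). Exons of Npc1 overlap genes on the opposite strand over 601 bases, and the handling of strand is not given in the sources used here.

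Npc2, the soluble partner that hands cholesterol to NPC1, stood at 939, 972 and 1020.0 CPM in WT naive, 1178, 904 and 857 CPM in Tim4KO naive, 824, 1051 and 1047 CPM in WT ID8, and 1095, 1002 and 1091 CPM in Tim4KO ID8. No pair of groups separated. The log2 change was 0.00 in WT (approximate 95% interval -0.28 to 0.27) and 0.12 in Tim4KO (-0.16 to 0.39), with edgeR adjusted p of 0.985 and 0.621. Of the 10 genes, Npc2 had the narrowest WT interval together with Npc1.

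SOAT1 esterifies cholesterol for storage. Soat1 stood at 193, 189 and 198 CPM in WT naive, 175, 238 and 225 CPM in Tim4KO naive, 184, 275 and 162 CPM in WT ID8, and 199, 201 and 180.0 CPM in Tim4KO ID8. WT ID8 library 2 was the highest of all, and the groups overlapped. The log2 change was 0.10 in WT (SE 0.17, edgeR adjusted p = 0.664) and -0.13 in Tim4KO (SE 0.17, edgeR adjusted p = 0.644).

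Plin2, the gene of perilipin 2, stood at 513, 907 and 960.2 CPM in WT naive and at 614, 1327 and 1089.9 CPM in WT ID8. Library 1 was low in both of these groups, and they overlapped, with a log2 change of 0.35 (SE 0.26, edgeR adjusted p = 0.304). In each of the 3 pairs of WT libraries with the same number the ID8 library was above the naive one, and with the number as a block within WT the change was 0.33 and passed (edgeR adjusted p = 0.0452). That block was added after the data were seen and no label gives it, and the fit called 5 members with the challenge in WT. Without WT ID8 library 1 the change was 0.67 (edgeR adjusted p = 0.0208). In Tim4KO naive Plin2 stood at 844, 732 and 874 CPM and in Tim4KO ID8 at 961, 1014 and 879 CPM, close together but without overlap. That change was 0.22 (SE 0.26, edgeR adjusted p = 0.615). With Plin2, 5 members did not overlap between Tim4KO ID8 and Tim4KO naive, where 41.9% of all tested genes did not, and in WT 4 members did not, where 44.4% of all genes did not.

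Lipoprotein lipase, encoded by Lpl, releases fatty acids from lipoproteins. Lpl stood at 905, 804 and 869 CPM in WT naive, 581, 353 and 443 CPM in Tim4KO naive, 820.4, 776 and 237 CPM in WT ID8, and 471, 376 and 493 CPM in Tim4KO ID8. Library 3 of WT ID8 was the lowest of all 12 libraries, while the other WT ID8 libraries lay near the WT naive level. The log2 change with the challenge was -0.49 in WT (SE 0.37, edgeR adjusted p = 0.321), and leaving out WT ID8 library 3 gave -0.08 (edgeR adjusted p = 0.741). In Tim4KO it was -0.04 (SE 0.37, edgeR adjusted p = 0.955). Adipocytes also express Lpl, and an adipocyte marker list summed to 2.80 to 5.31 CPM in naive, 4.98 to 18.1 CPM in WT ID8 and 7.30 to 9.23 CPM in Tim4KO ID8 libraries, with Adipoq at 0 to 0.173 CPM. Plin1 and Retn of that list reached 14.6 and 3.56 CPM in WT ID8. Cidec, Lep, Cfd, Adrb3 and Pck1 were at most 0.758 CPM in any library.

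The genotypes were compared within each state. None of the 10 genes passed in naive cells or in ID8 cells, where 0.0439% and 0.0565% of all tested genes passed. At an unadjusted p under 0.05, 1 member was found in naive cells (6.27% of all genes) and 2 in ID8 cells (12.1% of all genes). The groups did not overlap for Apoe and Lpl in naive cells, where 14.2% of all genes did not, and for Abca1, Abcg1, Apoe and Nr1h3 in ID8 cells, where 15.6% did not. The challenge and genotype comparisons share libraries, so their values for a gene are not independent.

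**Figure D3:**
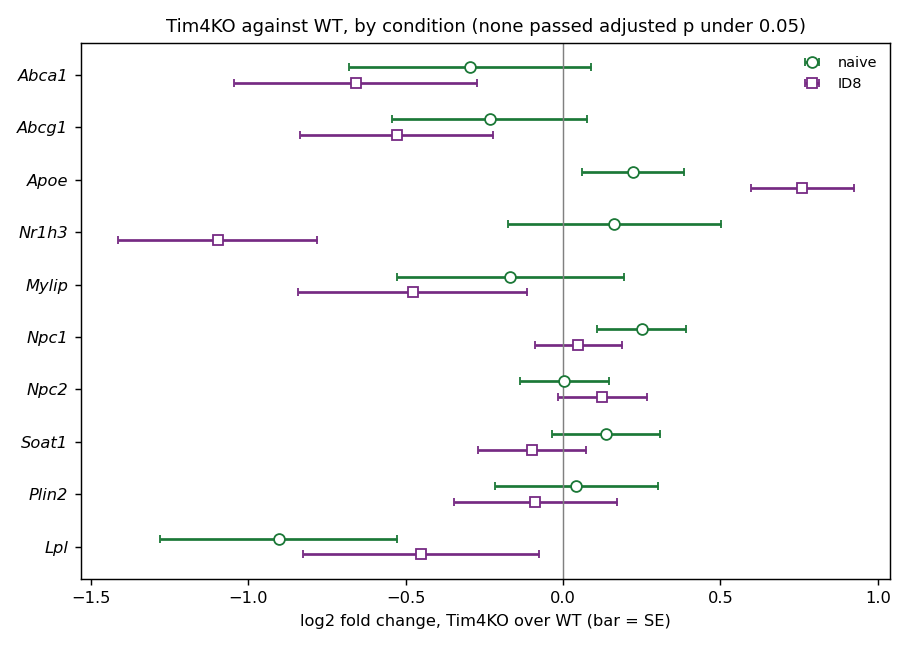
log2 fold change of Tim4KO over WT for each gene (horizontal axis) in naive cells (circles) and ID8 cells (squares), with bars of 1 standard error. Nr1h3 at -1.10 and Apoe at 0.76 in ID8 cells and Lpl at -0.90 in naive cells lie farthest from 0, and no gene passed an edgeR adjusted p under 0.05.

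In ID8 cells Apoe was 1.69-fold higher in Tim4KO than in WT (log2 0.76, SE 0.16, unadjusted p = 0.000312, edgeR adjusted p = 0.108). DESeq2 gave 0.75 with an adjusted p of 0.000249, and leaving out WT ID8 library 3 gave 0.58 with an edgeR adjusted p of 0.0271. Nr1h3 differed the other way, with 8.03 to 10.4 CPM in Tim4KO ID8 against 11.8 to 33.0 CPM in WT ID8. Its log2 difference was -1.10 (SE 0.32, unadjusted p = 0.00372, edgeR adjusted p = 0.231), which became -1.38 with an edgeR adjusted p of 0.00497 without WT ID8 library 3 and -1.11 with an adjusted p of 0.0429 in DESeq2. The calls for both genes thus turned on the tool and on 1 library, while the direction was the same in all alternative fits.

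The export genes Abca1 and Abcg1 were each lower in every Tim4KO ID8 library than in any WT ID8 library, by -0.66 (SE 0.39, edgeR adjusted p = 0.508) and -0.53 (SE 0.31, edgeR adjusted p = 0.4995) on the log2 scale. Neither difference was larger than the spread between libraries allowed, and both missed the threshold in each alternative fit. In naive cells their differences were -0.29 and -0.23, with edgeR adjusted p of 0.949 and 0.950. Mylip differed by -0.17 in naive and -0.48 in ID8 cells, with edgeR adjusted p of 0.972 and 0.613.

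Lpl was lower in every Tim4KO naive library than in any WT naive library, by 1.87-fold (log2 -0.90, SE 0.38, unadjusted p = 0.0365, edgeR adjusted p = 0.778). In ID8 cells the log2 difference was -0.45 (SE 0.37, edgeR adjusted p = 0.647), with overlap through the low WT ID8 library 3. Without that library the differences were -0.90 in naive cells (edgeR adjusted p = 0.0185) and -0.83 in ID8 cells (edgeR adjusted p = 0.00458). WT ID8 library 3 is not part of the naive comparison and enters it only through the shared fit, and the naive difference itself stayed at -0.90. No other single library, when left out, brought either difference past the threshold. Of the 8 alternatives that kept all libraries, 0 brought either past it. Npc1, Npc2, Soat1 and Plin2 differed by 0.00 to 0.25 in naive cells and by -0.10 to 0.13 in ID8 cells, with edgeR adjusted p from 0.744 to 0.997.

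Whether the response to the challenge differed between genotypes was tested as an interaction, the Tim4KO response minus the WT response. No member passed, and 0.0% of all tested genes did by edgeR, while 2 members and 7.44% of all genes had an unadjusted p under 0.05. These members were Nr1h3 (log2 -1.26, SE 0.46, unadjusted p = 0.0164, edgeR adjusted p = 0.668) and Apoe (log2 0.54, SE 0.23, unadjusted p = 0.0333, edgeR adjusted p = 0.668). Across all tested genes DESeq2 called 11 interactions, of which none was a member. The interaction of Nr1h3 reached -1.55 with an edgeR adjusted p of 0.0449 without WT ID8 library 3. In that fit of 11 libraries 3 members passed between genotypes in ID8 cells, against 5.74% of all genes, and 1 in naive cells, against 0.167% of all genes.

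**Figure D4:**
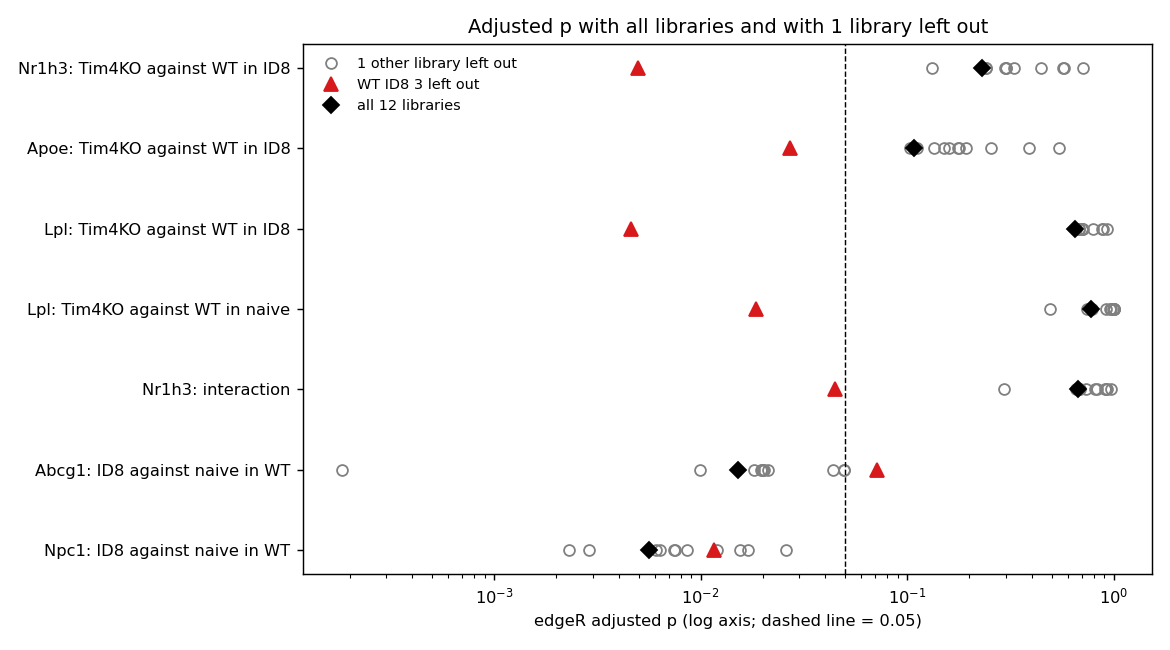
edgeR adjusted p (horizontal log axis, dashed line at 0.05) for 7 member comparisons with all 12 libraries (diamonds), without WT ID8 library 3 (triangles) and without each other library in turn (open circles). For Nr1h3, Apoe and Lpl between genotypes only the triangles lie below the line, and for Abcg1 in WT only the triangle lies above it.

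The wider pathway was followed through 12 lists of 110 other lipid genes, of which 96 were tested. With the challenge, 15 rose and 16 fell in WT, where 31.8% of all tested genes passed, and 13 rose and 9 fell in Tim4KO, where 16.6% did. Their median log2 change was 0.05 and 0.06, against -0.04 and -0.05 for all tested genes. Between genotypes 1 of the 96 passed in naive cells (0.0439% of all genes) and 0 in ID8 cells (0.0565% of all genes) by edgeR, and 16 in ID8 cells had an unadjusted p under 0.05, as did 12.1% of all genes. Without WT ID8 library 3, 31 of 98 (31.6%) passed with the challenge in WT, against 29.4% of all genes. In Tim4KO 26 (26.5%) passed in that fit, against 20.7% of all genes, and between genotypes in ID8 cells 16 (16.3%) did, against 5.74%. Of these 16 genes, 14 were higher and 2 lower in Tim4KO, and of all genes called there 390 were higher and 607 lower. With all libraries the median log2 difference between genotypes in ID8 cells was 0.17 for the 96 genes and 0.01 for all tested genes.

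**Figure D5:**
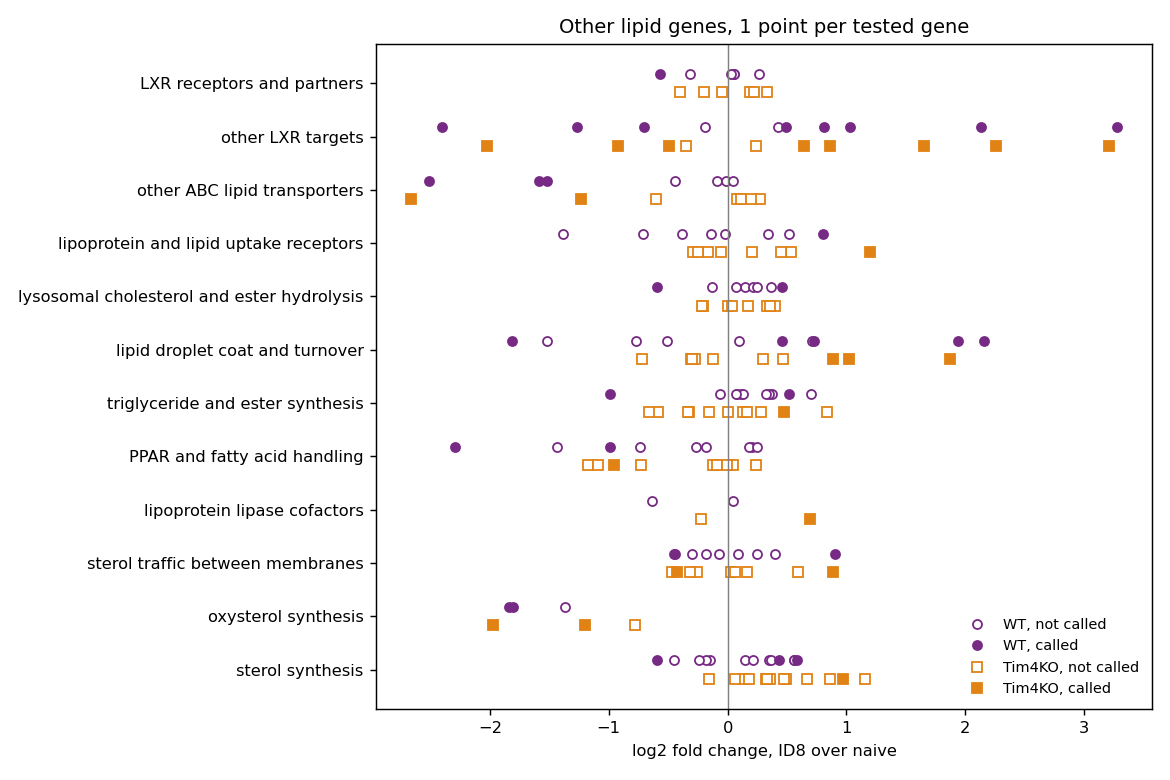
log2 fold change of ID8 over naive (horizontal axis) for each tested gene of the 12 lipid lists (rows) in WT (circles) and Tim4KO (squares), filled where the edgeR adjusted p was under 0.05. The filled points of the other LXR targets lie on both sides of 0, and those of oxysterol synthesis lie below it.

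Of 6 tested receptors and partners of LXR, 1 fell in WT, as did 12.3% of all genes. In Tim4KO 0 passed, against 16.6% of all genes, and 1 had an unadjusted p under 0.05 by edgeR. The gene that fell in WT was Rxrb, a partner receptor, at 40.9 to 47.3 CPM in WT naive and 24.7 to 39.7 CPM in WT ID8 (log2 -0.57, SE 0.16, edgeR adjusted p = 0.0158). That call held in 8 of the 12 fits without 1 library, and ended without WT naive 2 or 3 or WT ID8 1 or 2.

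Other LXR targets moved in both directions, with 5 of 10 tested genes higher and 3 lower in each genotype. Of all tested genes, 19.5% were higher and 12.3% lower in WT, and 11.5% and 5.06% in Tim4KO. Among those that rose was Scd1, a fatty acid desaturase, at 1.41, 1.14 and 0.978 CPM in WT naive, 0.902, 1.07 and 0.901 CPM in Tim4KO naive, 11.6, 7.22 and 14.9 CPM in WT ID8, and 9.61, 8.40 and 8.41 CPM in Tim4KO ID8. All ID8 libraries were above all naive libraries, and the log2 change was 3.28 in WT (SE 0.29, edgeR adjusted p = 3.12e-06) and 3.21 in Tim4KO (SE 0.30, edgeR adjusted p = 9.09e-06). The related desaturase Scd2 rose by 2.13 and 2.26, with edgeR adjusted p of 3.8e-05 and 6.19e-05. Cd5l, a secreted macrophage protein, rose by 1.03 in WT and 1.65 in Tim4KO, with edgeR adjusted p of 0.00015 and 7.44e-06.

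Pltp, which moves phospholipid between lipoproteins, fell with the challenge. It stood at 457, 450.2 and 528 CPM in WT naive, 605, 573 and 703 CPM in Tim4KO naive, 180.5, 225 and 190.2 CPM in WT ID8, and 369, 266 and 356 CPM in Tim4KO ID8. Like Apoe, all ID8 libraries lay below all naive libraries of their genotype, by -1.27 (SE 0.15, edgeR adjusted p = 3.65e-05) and -0.92 (SE 0.15, edgeR adjusted p = 0.000831). The other genes of the list that passed were named after their values were seen. Lpcat3, which remodels phospholipids, and Srebf1, a regulator of lipid synthesis, rose in both genotypes, by 0.81 and 0.86 and by 0.49 and 0.65. Apoc1, a neighbour of Apoe, fell in both, with log2 changes of -2.41 and -2.02. Smpdl3a fell in WT by 0.71 and Mertk, a receptor for dying cells, fell in Tim4KO by 0.49, in 9 and 8 of 12 fits without 1 library. The rise of Srebf1 in WT missed the threshold with upper-quartile scaling (edgeR adjusted p = 0.118) and with the background as a covariate (edgeR adjusted p = 0.156).

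Other ABC lipid transporters had no gene that rose, and 3 of 7 tested genes fell in WT and 2 in Tim4KO. Of all tested genes, 12.3% fell in WT and 5.06% in Tim4KO. Abca9 stood at 250 to 366 CPM in WT naive and 85.8 to 140.1 CPM in WT ID8, and at 268 to 514 CPM and 156 to 195 CPM in Tim4KO. It fell by 1.59 on the log2 scale in WT (SE 0.25, edgeR adjusted p = 0.000537) and by 1.23 in Tim4KO (SE 0.25, edgeR adjusted p = 0.00481). Abca6 fell by 2.51 and by 2.66, with edgeR adjusted p of 0.0212 and 0.0245, and Abca5 fell by 1.52 in WT (edgeR adjusted p = 0.0272). In the WT ID8 libraries Abca6 had 14, 6 and 107 counts and Abca5 had 10, 12 and 19. In fits without 1 library, Abca6 passed in 9 of 12 for WT and 7 of 12 for Tim4KO and Abca5 in 9 of 12, whereas Abca9 passed in all. With the background as a covariate the change of Abca5 was -0.70 (edgeR adjusted p = 0.444).

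Of 10 tested genes of lipid droplet coats and turnover, 4 rose and 1 fell in WT, and 3 rose in Tim4KO. Of all tested genes, 19.5% rose and 12.3% fell in WT, and 11.5% rose in Tim4KO. Hilpda, an inhibitor of droplet lipolysis, stood at 9.10, 14.7 and 12.01 CPM in WT naive, 13.1, 10.4 and 11.6 CPM in Tim4KO naive, 53.3, 73.7 and 34.7 CPM in WT ID8, and 21.9, 26.8 and 23.2 CPM in Tim4KO ID8. ID8 libraries were above all naive libraries, and those of WT ID8 were above those of Tim4KO ID8. The log2 change was 2.16 in WT (SE 0.24, edgeR adjusted p = 3.22e-05) and 1.03 in Tim4KO (SE 0.24, edgeR adjusted p = 0.00983). The latter missed the threshold without Tim4KO naive library 2 (0.97, edgeR adjusted p = 0.0556). Between genotypes in ID8 cells Hilpda differed by -1.17 (SE 0.23, edgeR adjusted p = 0.0839), and its interaction had an edgeR adjusted p of 0.668.

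Plin3, another perilipin, rose from 50.6 to 60.0 CPM in WT naive to 79.8 to 96.9 CPM in WT ID8 (log2 0.73, SE 0.12, edgeR adjusted p = 0.000485), and by 0.89 in Tim4KO (edgeR adjusted p = 0.000235). Plin1, the perilipin of adipocytes, stood at 1.41 to 2.47 CPM in WT naive and at 3.91, 2.58 and 14.6 CPM in WT ID8, a rise of 1.94 (SE 0.54, edgeR adjusted p = 0.0161). Library 3 of WT ID8 was far above the others, and without it the change was 0.79 (edgeR adjusted p = 0.1002). In Tim4KO Plin1 rose by 1.87 (edgeR adjusted p = 0.0333), a call that held in 6 of 12 fits without 1 library. With the background as a covariate the change in WT was 0.60 (edgeR adjusted p = 0.452). Abhd5, an activator of droplet lipolysis, rose by 0.45 in WT (edgeR adjusted p = 0.0482), in 7 of 12 such fits, and missed the threshold with upper-quartile scaling (0.21, edgeR adjusted p = 0.307). The 1 gene that fell was Plin5, by 1.82 (edgeR adjusted p = 0.0497), in 2 of 12 such fits, and it was named after its values were seen. Plin5 lay near the floor, at 1.27 to 2.27 CPM in WT naive and 0.258 to 0.921 CPM (8, 3 and 6 counts) in WT ID8. With the background as a covariate its change was -0.68 (edgeR adjusted p = 0.529).

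Both called genes of oxysterol synthesis fell in both genotypes, among 3 tested. Of all tested genes, 12.3% fell in WT and 5.06% in Tim4KO. Cyp27a1, which makes the LXR ligand 27-hydroxycholesterol, stood at 27.0, 22.7 and 27.5 CPM in WT naive, 25.4, 34.1 and 32.0 CPM in Tim4KO naive, 7.37, 6.01 and 8.53 CPM in WT ID8, and 15.4, 11.4 and 13.0 CPM in Tim4KO ID8. No naive library overlapped an ID8 library. It fell by 1.80 on the log2 scale in WT (SE 0.18, edgeR adjusted p = 9.72e-06) and by 1.20 in Tim4KO (SE 0.17, edgeR adjusted p = 0.000398). Cyp7b1, which degrades oxysterols, fell by 1.84 and 1.97, with edgeR adjusted p of 0.0075 and 0.0102, from 1.46 to 4.76 CPM in naive libraries. The fall of Cyp7b1 in Tim4KO missed the threshold with limma voom (adjusted p = 0.0719).

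The list of lysosomal cholesterol and ester hydrolysis held 1 higher and 1 lower gene of 8 tested in WT and none in Tim4KO, where 3 had an unadjusted p under 0.05 by edgeR. Of all tested genes, 19.5% rose and 12.3% fell in WT, and 16.6% passed in Tim4KO. Nceh1, a neutral ester hydrolase, rose by 0.46 (SE 0.14, edgeR adjusted p = 0.0186), and Lipe, the hormone-sensitive lipase, fell by 0.59 (SE 0.20, edgeR adjusted p = 0.0388). Both act outside the lysosome. Nceh1 passed in 9 of 12 fits without 1 library and Lipe in 2 of 12, and Nceh1 missed the threshold with upper-quartile scaling (0.21, edgeR adjusted p = 0.197). In the other alternatives Nceh1 and Lipe each passed in 6 of 9. Of 2 tested cofactors of lipoprotein lipase, 1 rose in Tim4KO (11.5% of all genes) and 0 in WT (19.5%). It was Lmf1, which the lipase needs to fold, with a log2 change of 0.70 in Tim4KO (SE 0.18, edgeR adjusted p = 0.0171) and 0.05 in WT (edgeR adjusted p = 0.850). The call in Tim4KO held in 9 of 12 fits without 1 library and ended without Tim4KO naive 2 or Tim4KO ID8 1 or 2.

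In naive cells Cd5l was the 1 gene of the lists that passed between genotypes. It stood at 1166, 1069 and 1180.0 CPM in WT naive and at 613, 607 and 579 CPM in Tim4KO naive, and was lower by 0.93 on the log2 scale in Tim4KO (SE 0.15, edgeR adjusted p = 0.0395). The groups were far apart, yet the call held in only 2 of 12 fits without 1 library, with a change of -0.95 to -0.89 throughout. In ID8 cells the log2 difference was -0.30 (edgeR adjusted p = 0.417).

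Likeness of pattern was measured as Pearson's r of log2 CPM across the 12 libraries, over tested genes whose mean count reached 50. It is a description, since libraries of a group share their condition, background and depth. The gene nearest to Apoe was Peg13 (r = 0.991), followed by Phf1 (0.988), and nearest to Nr1h3 was Adam17 (0.983), the sheddase of many surface receptors. Arhgap10 was nearest to Abcg1 (0.964), Ltn1 to Npc1 (0.960), Fbxo3 to Abca1 (0.940), and B2m, the light chain of MHC class I, to Npc2 (0.935), with H2-K1 next (0.926). For Mylip, Soat1, Plin2 and Lpl the nearest genes were Zkscan8 (0.931), Rbm41 (0.915), Slc27a4 (0.910) and Pdgfa (0.902). Among the members themselves, Abca1 was nearest to Mylip (0.860) and Abcg1 to Nr1h3 (0.787), whereas Apoe ran against Abcg1 (-0.83) and Nr1h3 (-0.81). Abca1 and Apoe, both LXR-driven, had an r of 0.04.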

How the data were processed

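Per the labels' protocols, sorted cells gave RNA by the RNeasy micro kit, from which the SMART-Seq mRNA LP kit made libraries. The authors deposited raw counts of reads per Ensembl gene in 1 table, with 0 columns of values unused here. Per the submitters' processing notes, FastQC and STAR 2.5 were used and the builds mm10 and GRCm39 are named without a role. The counting program, annotation and strand setting are not given in the sources used here. Symbols came from GENCODE vM21 (52029 of 57010 identifiers).

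The counts were tested with edgeR 4.0.16 (R 4.3.3): filterByExpr, TMM scaling and 1 robust quasi-likelihood fit of all 12 libraries with a mean per group (8 residual degrees of freedom). Each of 5 comparisons was tested two-sided, with Benjamini-Hochberg adjustment over 15943 genes and a threshold of 0.05. The SE is the size of the log2 change over the root of the F statistic, and approximate 95% intervals are 1.96 SE wide on each side. Counting floors cover counting error only, since no molecular identifiers were used.

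Every member is described. Up to 4 called genes of a list with the smallest p in a challenge comparison, and up to 3 in a genotype comparison, could be named with values. For likeness, the 3 genes with the highest Pearson's r to a member were taken (log2 CPM, prior count 2). The members and lists were chosen with earlier results of these data known. Alternatives were DESeq2 1.42.0, limma 3.58.1 voom, other scalings, no filter, a fit to only the groups compared, a replicate block and each library left out. Over the tested genes, deviations from the group means correlated at 0.103 to 0.423 in each of the 3 same-numbered pairs of WT naive and WT ID8 libraries. In each other comparison at most 1 of 3 such pairs was over 0.1. WT naive 2 and WT ID8 3, with unlike numbers, correlated at 0.232, so these values do not establish the numbers as pairs. No label does so either. The main fit holds no block, and a block within WT was an alternative for the challenge in WT only. A block within WT and a background covariate were added after the data were seen. The test scripts were tested on simulated counts.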

Additional observations from a re-analysis of the deposited data

How the results depend on the processing

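Values were recomputed under up to 21 alternatives, of which 12 left out 1 library each. The block within WT was run for the challenge in WT only, the interaction could not be had from a fit to only the groups compared, and DESeq2 gave no adjusted p for Ppara in WT. The 5 called member changes kept their direction in all 104 alternative values and their call in 100, and the exceptions were Abcg1 and Npc1 in WT, given in the report. Of 896 values for the 45 member results that were not called, 22 passed the threshold and 54, from 19 results, changed sign, none of them called. The cause was not tested. In a separate fit to only the groups compared, 3102 genes were called with the challenge in WT. With 1 library left out, the genes called ranged from 3362 to 7230 and the members from 3 to 5 with the challenge in WT, and from 1222 to 3595 and 1 to 3 in Tim4KO. Likewise 1 to 29 genes and 0 to 1 members were called between genotypes in naive cells, 1 to 997 genes and 0 to 3 members in ID8 cells, and 0 to 368 genes and 0 to 1 members for the interaction.

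Without a filter on low counts, 3 members were called with the challenge in Tim4KO and 2 between genotypes in ID8 cells, and the genes called were 59 between genotypes in naive cells, 264 in ID8 cells and 73 for the interaction. DESeq2 called 2 members with the challenge in Tim4KO and 2 between genotypes in ID8 cells, and 52, 266 and 11 genes in those 3 comparisons. A fit to only the groups compared called 2 members with the challenge in Tim4KO and 2 genes between genotypes in naive cells, and limma voom called 3 genes there. With the background covariate, 2 members were called with the challenge in WT and 1 between genotypes in ID8 cells, with 179 genes between genotypes in ID8 cells and 2 for the interaction. Over all 18 pairs with the same number in different groups, the correlation of deviations ran from -0.50 to 0.42, with 5 above 0.1. Only 2 of 12 libraries correlated best with their own number. With the number as a block within WT, 5932 genes and 5 members were called with the challenge in WT, and of the genes named here it changed the calls of Plin2 and Ppara and no other. A replicate block over all groups called 3 members with the challenge in Tim4KO, 3 genes between genotypes in naive cells and 14 in ID8 cells.

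Sign changes were as follows, on the log2 scale. Without a filter, Abca1 with the challenge in WT was 0.0075, Npc2 was 0.11, Lpl with the challenge in Tim4KO was 0.0086, and Npc1 between genotypes in ID8 cells was -0.0068. With the replicate block, Abca1 in WT was 0.001. Npc2 between genotypes in naive cells was -0.0158 with DESeq2 and with its size factors in edgeR, -0.0489 with upper-quartile scaling, -0.0088 with limma voom, -0.0116 in the fit to only the groups compared, and -0.0191 with the background covariate. Soat1 with the challenge in WT was -0.15 with upper-quartile scaling and -0.0075 in the fit to only the groups compared, and Plin2 between genotypes in ID8 cells was 0.0028 with upper-quartile scaling. With the background covariate, Mylip in WT was 0.25, Lpl was 0.10 in WT and 0.26 in Tim4KO, and Plin2 was 0.0894 between genotypes in ID8 cells and 0.0795 for the interaction.

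Leaving out 1 library gave these ranges for the other results that changed sign. With the challenge in WT they were -0.34 to 0.16 for Abca1, -0.29 to 0.20 for Mylip, -0.0317 to 0.18 for Npc2 and -0.13 to 0.28 for Soat1, and in Tim4KO -0.18 to 0.19 for Lpl. Between genotypes in naive cells they were -0.56 to 0.0574 for Abca1, -0.53 to 0.11 for Abcg1, -0.0191 to 0.36 for Nr1h3, -0.35 to 0.13 for Mylip, -0.14 to 0.10 for Npc2 and -0.19 to 0.20 for Plin2. In ID8 cells they were -0.0885 to 0.12 for Npc1, -0.0296 to 0.18 for Npc2, -0.25 to 0.16 for Soat1 and -0.39 to 0.15 for Plin2. For the interaction they were -0.0417 to 0.26 for Npc2, -0.40 to 0.0096 for Soat1 and -0.44 to 0.10 for Plin2. Depth limits Nr1h3 most among the members.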

Other observations

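Of 8 tested lipoprotein and lipid uptake receptors, 1 rose in each genotype (19.5% of all genes in WT, 11.5% in Tim4KO). It was Lrp1, a receptor for apolipoprotein E particles. In WT its CPM values were 417, 568 and 561 before and 876, 685 and 1129 after the challenge, and in Tim4KO they were 341, 525 and 603 before and 1069.99, 932 and 1376 after it. Naive and ID8 libraries did not overlap, and the log2 change was 0.80 in WT (SE 0.23, edgeR adjusted p = 0.0178) and 1.20 in Tim4KO (SE 0.23, edgeR adjusted p = 0.00325). Without WT naive library 1 the change in WT was 0.68 (edgeR adjusted p = 0.0709). In the alternatives that did not leave out 1 library, the WT rise of Lrp1 passed in 7 of 9. Of 9 tested genes of PPAR signalling and fatty acid handling, 2 fell in WT (12.3% of all genes) and 1 in Tim4KO (5.06%). Fabp4, a fatty acid carrier, fell by 0.99 and 0.95 on the log2 scale, with edgeR adjusted p of 0.000658 and 0.00164, and passed in every alternative fit. Ppara, a receptor that drives fatty acid oxidation, fell in WT by 2.29 (edgeR adjusted p = 0.0425), from at most 1.41 CPM, and passed in 2 of 12 fits without 1 library. With the replicate number as a block within WT, Ppara missed the threshold (edgeR adjusted p = 0.0527).

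Beside the lists below, 19.5% of all tested genes rose and 12.3% fell in WT, and 11.5% rose and 5.06% fell in Tim4KO. Of 11 tested genes of triglyceride and ester synthesis, 1 rose and 1 fell in WT, and 1 rose in Tim4KO. Acsl5, which activates fatty acids, rose by 0.51 and 0.48 (edgeR adjusted p of 0.00853 and 0.0217), and Lpin1, a phosphatidate phosphatase, fell by 0.99 in WT (edgeR adjusted p = 0.00528). The call of Acsl5 in Tim4KO held in 7 of 12 fits without 1 library. Of 9 tested genes of sterol traffic between membranes, 1 rose and 1 fell in each genotype. Gramd1b, which carries cholesterol from the plasma membrane to the endoplasmic reticulum, rose by 0.90 and 0.89 (edgeR adjusted p of 0.000334 and 0.000823), and its relative Gramd1a fell by 0.45 and 0.42 (edgeR adjusted p of 0.0186 and 0.0406). Gramd1b passed in every alternative fit, and Gramd1a in 7 of 12 fits without 1 library for WT and 4 of 12 for Tim4KO. In the other alternatives Gramd1a passed in 7 of 9 for WT and 5 of 8 for Tim4KO. Of 13 tested genes of sterol synthesis, 2 rose and 1 fell in WT, and 1 rose in Tim4KO. Dhcr7, the last enzyme of one branch of cholesterol synthesis, rose by 0.58 and 0.97 (edgeR adjusted p of 0.0396 and 0.00474), Scap, the escort of SREBP, rose by 0.43 in WT (edgeR adjusted p = 0.0210), and Insig1, which retains that escort, fell by 0.59 in WT (edgeR adjusted p = 0.00687). In WT, Dhcr7 and Scap each passed in 9 of 12 fits without 1 library. With upper-quartile scaling the WT rises of Lrp1, Acsl5, Dhcr7 and Scap missed the threshold, at log2 changes of 0.57, 0.27, 0.33 and 0.18 and edgeR adjusted p of 0.0804, 0.0860, 0.229 and 0.230.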
